A study of Mus musculus with 33 samples.

Results

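The 53 genes described here drive or brake the cell division cycle and the copying of DNA. They were chosen by symbol, from general knowledge of their roles, and all 53 are among the 16336 genes of a table of transcript abundance in TPM, a share of the library's transcripts that is scaled by transcript length. They fall into 7 role groups: 14 genes of replication licensing and the fork, 3 of nucleotide supply, 8 G1 cyclins and kinases, 8 E2F factors, pocket proteins and late transcription factors, 9 S to M cyclins with Cdk1 and its regulators, 9 mitotic kinases, checkpoint and chromosome proteins, and 2 inhibitors of cyclin-dependent kinases (CDKs).

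The series followed E14Tg2a, a wild-type mouse embryonic stem (ES) cell line, and dK9.1 and dK9.2, which are 2 independent clones derived from it by CRISPR deletion of a region enriched for H3K9me3 upstream of Nanog. Each deleted line is 1 clone, so an effect of the deletion and a property of the clone cannot be told apart in either line alone. A property that both clones share cannot be told apart from the deletion in their joint comparison either. Day 0 was undifferentiated cells on gelatine in serum with LIF. After withdrawal of LIF the cells grew as floating embryoid bodies for 4 days and were replated at low density on gelatinised dishes, where they were collected on days 6 and 8. There were 33 libraries in 12 groups of line and day, with 3 libraries per group except on day 6, which had 2 in each line.

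Division begins in G1, where D and E cyclins with their kinases inactivate the pocket proteins Rb1, Rbl1 and Rbl2 and free the E2F factors to transcribe replication genes. Origins are licensed when the origin recognition complex, Cdc6 and Cdt1 load the MCM helicase, which fires in S phase with Cdc45 and the GINS complex. Cyclins A and B with Cdk1 then carry the cell into mitosis, and the anaphase-promoting complex (APC/C) with Cdc20 ends it. ES cells are known for a short G1 phase with abundant cyclin E, and G1 lengthens as they differentiate.

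The libraries were sums of mixed cells, so fewer cells of a type and less RNA per cell cannot be told apart. Library sums ran from 994284 to 998266 TPM, with 12903 to 13905 genes at 1 TPM or more, and replicate libraries correlated at 0.96 to 0.988 across genes on the log2(TPM + 1) scale. The markers of pluripotent cells summed to between 7781 and 10197 TPM in the day 0 libraries. On day 8 that sum was 427 to 524 in E14Tg2a, 773 to 1723 in dK9.1 and 942 to 1314 in dK9.2, and all 10 of these markers had a lower mean on day 8 than on day 0 in E14Tg2a. Groups were compared on log2(TPM + 1) with limma, in 1 fit of all 33 libraries, with p-values adjusted by Benjamini-Hochberg over all genes tested. A gene passed when its adjusted p was under 0.05, and changes are differences on that log2 scale, with their standard error (SE). The table holds no read counts, so the reads behind each TPM value were not analysed here.

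The members ranged in mean level over all libraries from 2.97 TPM for Rbl2 to 502 TPM for Cdk4, and 24 of the 53 had a mean above 100 TPM. In E14Tg2a, 31 of the 53 passed between day 0 and day 8, 9 higher and 22 lower, which is 58.5% of the members beside 58.3% of all genes tested. By direction the shares lay further apart. Of the members, 41.5% passed as lower and 17.0% as higher, against 26.2% and 32.1% of all genes. The median change of the members was -0.18 and that of all genes 0.05. Changes past 1 on the log2 scale were found in 2 members upwards and 7 downwards, against 15.9% and 11% of all genes. In 8 members every day 8 library lay above every day 0 library and in 20 every one lay below, against 32.9% and 27.3% of all genes.

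In both clones, too, more members were lower than higher on day 8. In dK9.1, 11 members were higher and 17 lower on day 8 (49.9% of all genes passed, 25.1% and 24.8% by direction), and in dK9.2 11 were higher and 19 lower (51.3%, 24.6% and 26.7%). Across the 3 lines 21 members passed on day 8 in every line, 6 as higher and 15 as lower, and 15 members passed in none. Of all genes 18.4% passed in every line as higher, 17.5% as lower, and 27.7% in no line. At earlier times fewer passed. In E14Tg2a 2 members were higher and 18 lower on day 4 (26.2% of all genes passed, 10.4% higher and 15.9% lower), and 5 were higher and 18 lower on day 6 (39.6% of all genes, 19.6% and 20%). The day 4 total of 20 was 13 without day 0 replicate 2, and the day 6 total of 23 was 15 without day 6 replicate 2.

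On day 4 the counts in the clones depended on scaling. In dK9.1, 3 members were higher and 17 lower on day 4 (29.2% of all genes passed, 4.28% and 24.9% by direction), and in dK9.2 2 were higher and 20 lower (32.3%, 8.09% and 24.2%). The median change of all genes was -0.21 in dK9.1 and -0.16 in dK9.2 on that day. After rescaling each library by its median ratio, which set those medians to about 0, the counts were 10 higher and 8 lower in dK9.1 and 7 higher and 10 lower in dK9.2. With the assay number as a block, 31 members passed in dK9.1 on day 4 in place of 20, all the additional ones lower, and 13 passed without its day 0 replicate 2. On day 6 the counts were 4 higher and 17 lower in dK9.1 (31.4% of all genes, 11.2% and 20.3% by direction) and 6 higher and 15 lower in dK9.2 (39.9%, 16% and 23.9%). For dK9.1 rescaling made them 7 and 11, and 13 members in all passed without its day 6 replicate 2.

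**Figure D1:**
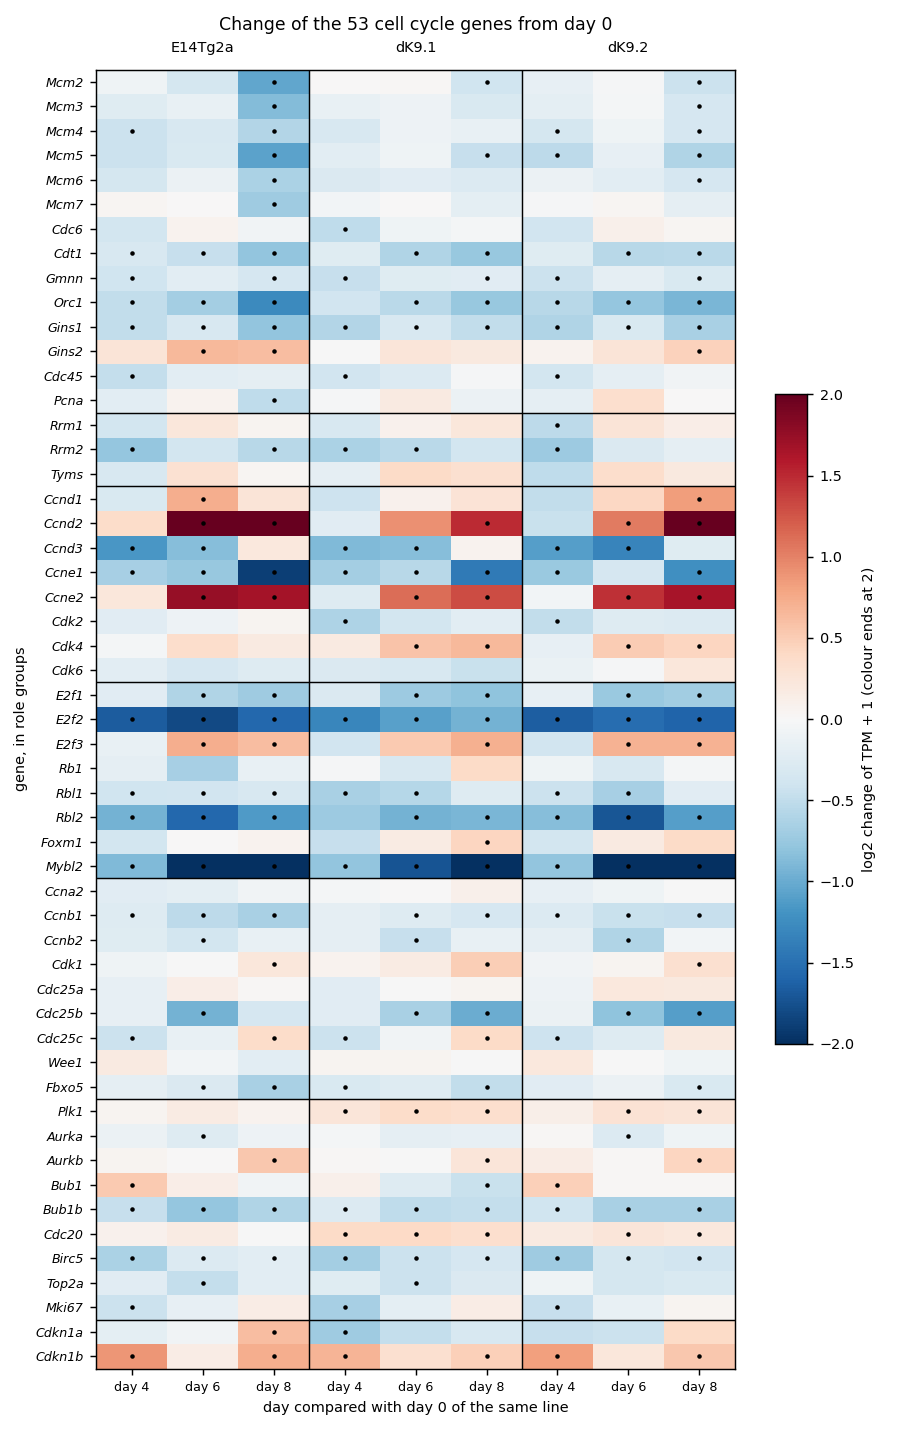
Change of each of the 53 genes from day 0, as the difference of log2(TPM + 1), on days 4, 6 and 8 in E14Tg2a, dK9.1 and dK9.2, with genes in their role groups and a dot where adjusted p was under 0.05. Of the replication genes 11 of 14 pass as lower on day 8 in E14Tg2a, Mybl2 is the lowest cell with -2.85 in E14Tg2a, and Ccnd2 is the highest with 3.29.

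The role groups differed in how much of their summed TPM was left on day 8. The replication genes summed to 2342 ± 190.5 TPM (SD, n = 3) on day 0 in E14Tg2a and 1499 ± 154 on day 8, which was 64.0% of day 0, and 83.5% and 82.8% were left in dK9.1 and dK9.2. The E2F and pocket protein group, whose largest term on day 0 is Mybl2, stood at 34.6%, 37.8% and 37.1%. This sum mostly follows Mybl2, which itself stood at 13.6%, 18.7% and 17.2%. The other members of the group ranged from 27.1% for E2f2 to 157% for E2f3 in E14Tg2a. The mitotic group stood at 92.4%, 91.3% and 92.3%, and the S to M group 93.1%, 105% and 99.6%. The 2 CDK inhibitors stood at 161%, 95.5% and 141% of day 0. These sums are descriptions, with no test.

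**Figure D2:**
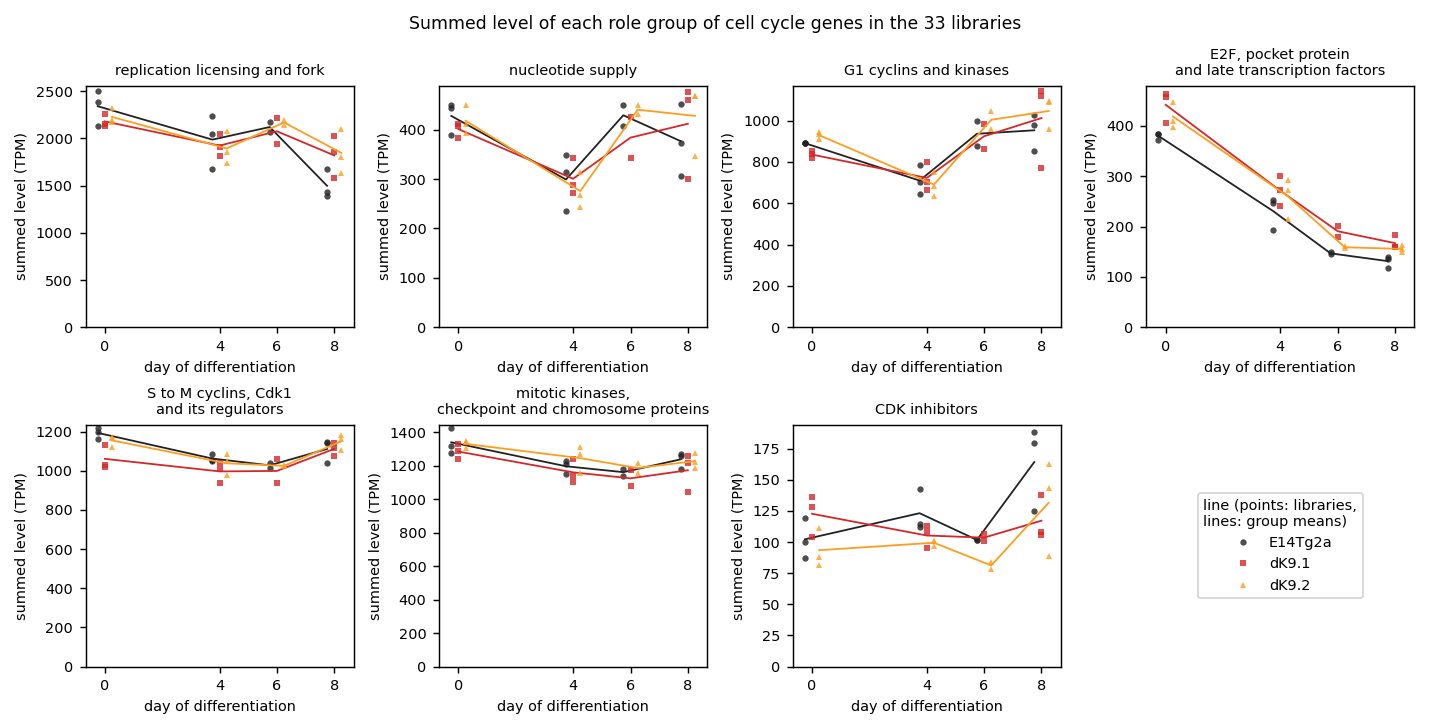
Summed TPM of each role group by day, with a point for each library and a line through the group means, in E14Tg2a, dK9.1 and dK9.2. The replication sum of E14Tg2a ran from 2132 to 2503 TPM on day 0 and from 1387 to 1674 on day 8, and the mitotic sum ran from 1278 to 1423 and from 1181 to 1271, a gap of a few TPM.

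Most replication licensing and fork genes fell in E14Tg2a, and 8 of the 14 fell between days 6 and 8. On day 8, 11 of the 14 were lower than on day 0 and 1 was higher, with a median change of -0.67, beside 26.2% of all genes lower and 32.1% higher. The lower genes were the 6 MCM helicase subunits, Orc1, Cdt1, its inhibitor Gmnn (geminin), Gins1 and the sliding clamp Pcna. Orc1, the origin-binding subunit named first in its complex, changed most. It measured 67.3, 57.3 and 54.6 TPM on day 0 and 30.1, 21.3 and 21.6 on day 8 in E14Tg2a (log2 change -1.27, SE 0.15, adjusted p = 7.68e-08). Mcm5 measured 216, 287 and 272 TPM on day 0 and 144, 115 and 107 on day 8 (log2 change -1.07, SE 0.17, adjusted p = 9.12e-06). Mcm2 measured 189, 239 and 232 and then 124, 102 and 95.6 (log2 change -1.03, SE 0.13, adjusted p = 3.91e-07). For these 3 genes every day 8 library lay below every day 0 library. The other lower members changed by between -0.86 for Mcm3 and -0.34 for Gmnn. The reads of Pcna may be shared with its processed pseudogene Pcna-ps2, which has its own entry in the table.

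From day 4 to day 6 in E14Tg2a no replication gene passed in limma's test, and 3 of the 14 had an unadjusted p under 0.05. In that step 2 passed as higher with the assay number as a block, Cdc6 (log2 change 0.47, adjusted p = 0.0098 in place of 0.1) and Cdc45 (0.32, 0.0265 in place of 0.213). From day 6 to day 8, 8 were lower and 0 higher. Mcm7, for example, held 267, 312 and 279 TPM on day 4, 276 and 278 on day 6 and 212, 149 and 152 by day 8 (log2 change -0.71, SE 0.14, adjusted p = 0.000571 for the last step). Pcna held 397 and 394 TPM on day 6 and 312, 232 and 255 by day 8 (log2 change -0.58, SE 0.18, adjusted p = 0.0166). Over all 53 members the step from day 4 to day 6 had 7 higher and 6 lower, while 24.6% of all genes passed, 14.4% higher and 10.2% lower, and rescaling gave 6 and 8. The step from day 6 to day 8 had 4 higher and 11 lower, while 25.7% of all genes passed, 16.4% higher and 9.3% lower. The totals of 13 and 15 rested on the small day 6 groups: they were 6 without day 6 replicate 2 and 8 without replicate 3 for the first step, and 7 without day 6 replicate 2 for the second.

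Gins2, Cdc6 and Cdc45 did not pass as lower between day 0 and day 8 in E14Tg2a, though Cdc45 did after rescaling (-0.26, adjusted p = 0.0465). Gins2, a subunit of the same GINS complex as Gins1, rose where Gins1 fell. Gins2 measured 51.9, 73.2 and 68.1 TPM on day 0 and 95.0, 97.9 and 102 on day 8 in E14Tg2a (log2 change 0.62, SE 0.13, adjusted p = 0.000349), and every day 8 library was above every day 0 library. In the clones Gins2 changed by 0.19 in dK9.1, which did not pass, and by 0.46 in dK9.2, which did. Gins1 in E14Tg2a measured 80.1, 89.3 and 83.2 and then 52.7, 47.4 and 45.0 (log2 change -0.79, SE 0.10, adjusted p = 3.62e-07), with no overlap in the other direction. Cdc6, which loads the helicase with Cdt1, gave 28.4, 30.2 and 24.3 TPM on day 0 and 34.6, 23.1 and 22.5 on day 8 (log2 change -0.07, SE 0.17, adjusted p = 0.759), and the groups overlapped. Cdc45 was lower on day 4, at 28.4, 26.1 and 26.2 TPM against 39.4, 39.997 and 33.8 on day 0 (log2 change -0.47, SE 0.14, adjusted p = 0.012), and stood at 34.5, 32.7 and 32.1 on day 8 (log2 change -0.18, SE 0.14, adjusted p = 0.263).

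In the clones the replication genes that passed on day 8 were 6 lower and 0 higher in dK9.1 with a median of -0.25, and 9 lower and 1 higher in dK9.2 with a median of -0.33. Of all genes 24.8% were lower and 25.1% higher in dK9.1, and 26.7% and 24.6% in dK9.2. Mcm2, Mcm5, Cdt1, Gmnn, Orc1 and Gins1 fell in all 3 lines. Orc1 measured 58.9, 55.0 and 51.4 TPM on day 0 and 38.8, 29.2 and 29.5 on day 8 in dK9.1 (log2 change -0.75, SE 0.15, adjusted p = 0.000168). In dK9.2 it measured 69.8, 65.9 and 60.7 and 43.0, 34.1 and 26.9 (log2 change -0.92, SE 0.15, adjusted p = 1.31e-05). With the assay number as a block Mcm3 and Mcm6 also passed in dK9.1, with adjusted p of 0.0356 and 0.0464 in place of 0.0763 and 0.109. Passing in 1 line and not in another does not show that the lines differ, and the test of that difference is given further on.

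E2F factors are known to bind the promoters of replication genes. The promoters of 3 of them, Orc1, Mcm5 and Mcm6, and of the pocket protein Rbl1 are shown because they hold such letters in the 160 bases before the annotated start. They were read from RefSeq on GRCm38.p6, 5′ to 3′ on the strand of the gene, and capitals mark a match to TTTGGCGC, TTTGCCGC, TTTCGCGC or TTTCCCGC on either strand, merged where matches overlap.
Orc1, chr4:108579294-108579453, plus strand: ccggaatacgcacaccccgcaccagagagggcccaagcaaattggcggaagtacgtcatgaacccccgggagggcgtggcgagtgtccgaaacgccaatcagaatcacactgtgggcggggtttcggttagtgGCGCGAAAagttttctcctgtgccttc
Mcm5, chr8:75109349-75109508, plus strand: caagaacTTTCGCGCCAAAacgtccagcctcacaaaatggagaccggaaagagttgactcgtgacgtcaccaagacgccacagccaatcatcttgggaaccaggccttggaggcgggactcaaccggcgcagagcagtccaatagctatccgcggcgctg
Mcm6, chr1:128359706-128359865, minus strand: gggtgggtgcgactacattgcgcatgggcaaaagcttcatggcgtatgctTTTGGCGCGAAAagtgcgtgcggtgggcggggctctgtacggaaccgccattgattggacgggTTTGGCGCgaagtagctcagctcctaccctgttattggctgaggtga
Rbl1, chr2:157204535-157204694, minus strand: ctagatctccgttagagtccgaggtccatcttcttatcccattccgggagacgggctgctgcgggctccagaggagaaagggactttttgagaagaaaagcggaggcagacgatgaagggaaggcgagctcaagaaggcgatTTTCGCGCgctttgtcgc

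Promoter windows of 300 bases, with 250 before and 50 after the start, were in the reference table for 40 of the 53 members. Such a match occurred in 7 of the 10 replication genes with a window, or 70.0%, in 3 of 6 in the E2F and pocket protein group, in 2 of 6 in the S to M group, in 1 of 5 G1 genes and in 0 of 8 mitotic genes. Among the other replication genes, which were not members, it occurred in 9 of 32, or 28.1%. Of all 27025 promoter windows 2.6% held one. A match is a description of letters and does not show binding, and no match says only that these letters are not in the window.

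Nucleotide supply genes had their lowest sum on day 4. Rrm2, the regulated subunit of ribonucleotide reductase, measured 175, 221 and 197 TPM on day 0, 91.8, 141 and 116 on day 4, 158 and 146 on day 6 and 156, 139.6 and 110.3 by day 8 in E14Tg2a. It fell on day 4 in every line, with log2 changes of -0.78, -0.63 and -0.72 in E14Tg2a, dK9.1 and dK9.2, though the dK9.1 call ended after rescaling (adjusted p = 0.138). On day 8 it was lower in E14Tg2a (log2 change -0.55, SE 0.19, adjusted p = 0.0132), a call that ended without day 0 replicate 2 (adjusted p = 0.0624) or day 8 replicate 3 (adjusted p = 0.0885). Rrm1, the other subunit, and Tyms, which makes thymidylate, rose from day 4 to day 6 in E14Tg2a, by 0.61 and 0.61 (adjusted p = 0.00732 and 0.0484, the latter 0.0762 after rescaling). Neither passed between day 0 and day 8, with changes of 0.06 and 0.03. The sum of the 3 genes was 69.9%, 74.9% and 65.9% of day 0 on day 4 in the 3 lines, and 100.3%, 95.7% and 105% on day 6.

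Among the G1 cyclins the balance within each class changed. Ccne1, the cyclin E that ES cells carry in abundance, fell, while Ccne2, the other E cyclin, rose, and both partner Cdk2. Ccne1 measured 151, 135 and 142 TPM on day 0 in E14Tg2a, 77.4, 98.8 and 93.0 on day 4, 86.0 and 82.6 on day 6 and 47.2, 32.6 and 35.0 by day 8 (log2 change -1.89, SE 0.14, adjusted p = 4.76e-11). Ccne2 measured 9.56, 7.02 and 10.5 TPM on day 0, 9.31, 11.9 and 10.6 on day 4, 37.8 and 27.6 on day 6 and 39.4, 29.3 and 24.1 by day 8 (log2 change 1.66, SE 0.22, adjusted p = 5.14e-07). Neither gene's day 0 and day 8 libraries overlapped. Per length, Ccne1 transcripts were 16.2 ± 2.85 times those of Ccne2 on day 0 (SD, n = 3) and 1.25 ± 0.176 times on day 8 in E14Tg2a. The ratio went from 12.3 ± 1.003 to 1.87 ± 0.798 in dK9.1 and from 16.2 ± 0.883 to 2.07 ± 0.514 in dK9.2. Ccne2 rose between day 4 and day 6 (log2 change 1.52, SE 0.25, adjusted p = 0.000109), and Ccne1 fell both by day 4 (log2 change -0.67, SE 0.14, adjusted p = 0.000909) and between day 6 and day 8 (log2 change -1.14, SE 0.16, adjusted p = 2.6e-05). The sum of both E cyclins went from 152 ± 9.51 to 69.2 ± 15.2 TPM in E14Tg2a.

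Ccnd2, a D cyclin that activates Cdk4 and Cdk6, rose more than any other member in E14Tg2a. It measured 4.84, 2.12 and 4.41 TPM on day 0, 7.35, 4.54 and 3.55 on day 4, 38.3 and 25.5 on day 6 and 31.6, 40.8 and 66.2 by day 8 (log2 change 3.29, SE 0.37, adjusted p = 4.45e-08), and the day 6 and day 8 libraries were all above those of day 0. In dK9.1 it went from 7.25, 6.69 and 11.997 to 34.5, 29.8 and 15.7 TPM (log2 change 1.49, SE 0.37, adjusted p = 0.00173), and in dK9.2 from 4.67, 5.37 and 8.68 to 33.7, 32.5 and 28.2 (log2 change 2.20, SE 0.37, adjusted p = 2.22e-05). Ccnd3, the most abundant D cyclin at day 0, fell and came back. It measured 193, 188 and 172 TPM on day 0, 86.6, 84.8 and 74.6 on day 4 (log2 change -1.16, SE 0.16, adjusted p = 6.2e-06), 103 and 99.9 on day 6 and 172, 263 and 214 by day 8 (log2 change 0.21, SE 0.16, adjusted p = 0.255 against day 0). Its rise from day 6 to day 8 passed (log2 change 1.07, SE 0.17, adjusted p = 0.000141). Ccnd3 made up 81.8% ± 1.41 of the TPM of the 3 D cyclins on day 0, 51.9% ± 4.35 on day 6 (n = 2) and 69.7% ± 7.27 on day 8 in E14Tg2a. Ccnd1 was higher on day 6, at 69.5 and 56.3 TPM against 38.8, 35.6 and 37.5 on day 0 (log2 change 0.73, SE 0.24, adjusted p = 0.0172), and its day 8 values of 59.4, 32.8 and 46.3 spread over both. On day 8 Ccnd1 was higher in dK9.2, at 68.5, 85.2 and 57.5 TPM against 33.8, 43.8 and 38.8 on day 0 (log2 change 0.83, SE 0.21, adjusted p = 0.00206), and changed by 0.27 in dK9.1, which did not pass.

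Of the G1 kinases, Cdk4, the member with the highest mean level, measured 407, 455 and 447 TPM on day 0 and 599.7, 502 and 397 on day 8 in E14Tg2a (log2 change 0.18, SE 0.16, adjusted p = 0.344), where the groups overlapped. It was higher on day 8 in dK9.1 (log2 change 0.65, SE 0.16, adjusted p = 0.00109) and dK9.2 (log2 change 0.43, SE 0.16, adjusted p = 0.0245). Cdk6 passed on no day in any line, with changes from -0.44 to 0.22. Cdk2 was lower on day 4 in both clones, with changes of -0.62 and -0.49, and its change of -0.22 in E14Tg2a did not pass.

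**Figure D3:**
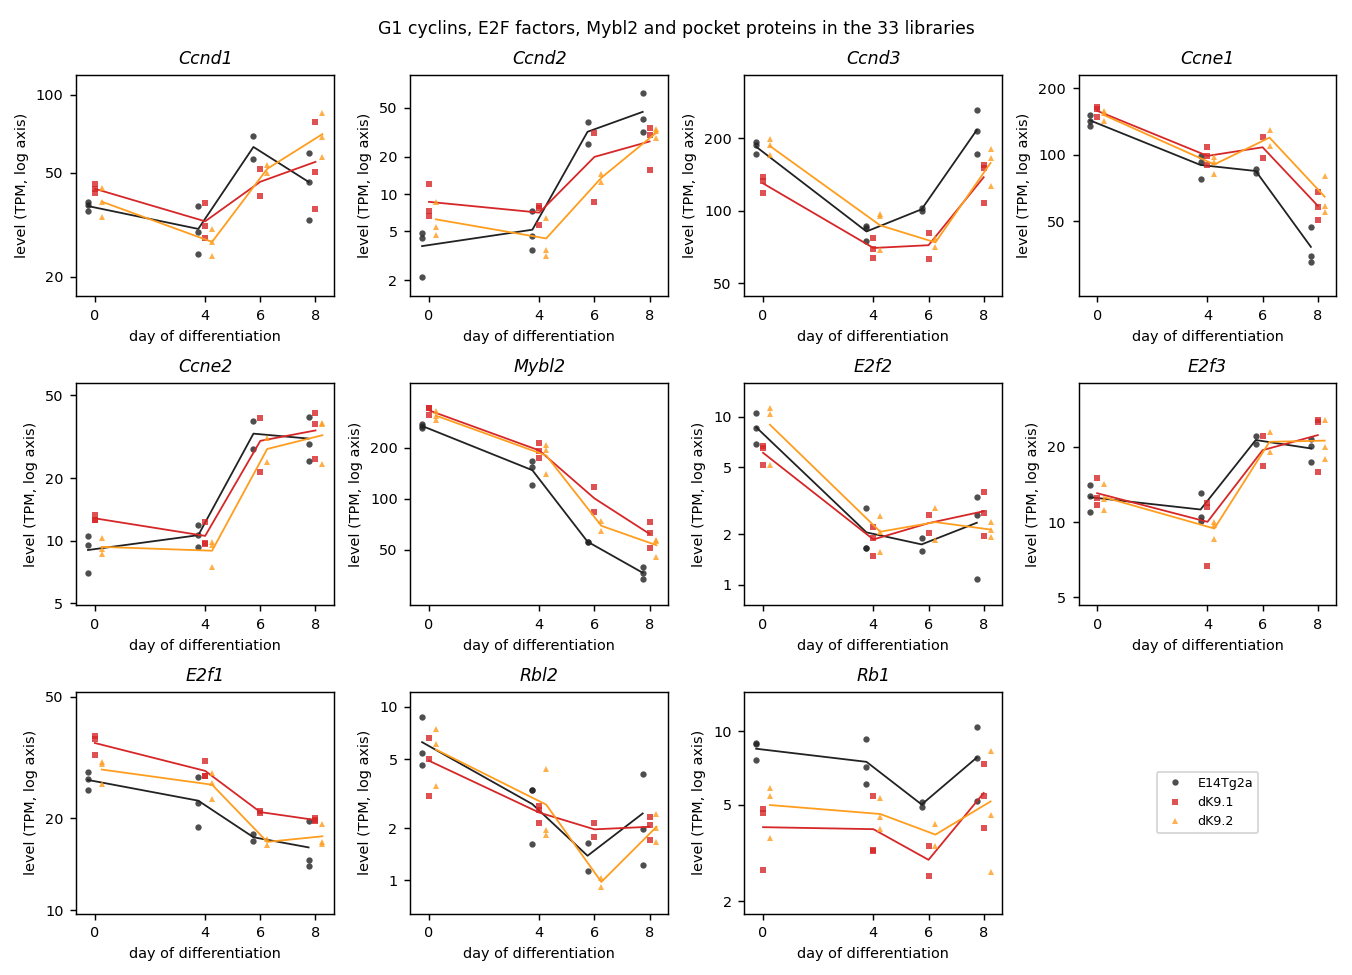
TPM on a log scale by day for Ccnd2, Ccnd3, Ccne1, Ccne2, E2f2, E2f3, Rb1 and Mybl2, with a point for each library and a line through the group means of E14Tg2a, dK9.1 and dK9.2. Over the 3 lines Ccne1 has its lowest day 0 library at 135 TPM and its highest day 8 library at 79.9, Mybl2 has them at 262 and 72.7, and Ccne2 and Ccnd2 climb.

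Mybl2 (B-Myb), which transcribes late cell cycle genes with the MuvB complex, fell more than any other member in every line. In E14Tg2a it measured 277, 262 and 269 TPM on day 0, 168, 154 and 121 on day 4, 56.0 and 55.8 on day 6 and 39.6, 36.6 and 33.8 by day 8 (log2 change -2.85, SE 0.15, adjusted p = 1.59e-13). Each of the steps in E14Tg2a passed, with changes of -0.88 to day 4, -1.37 from day 4 to day 6 and -0.60 from day 6 to day 8. In dK9.1 it went from 345, 343 and 311 TPM to 51.0, 62.6 and 72.7 (log2 change -2.42, SE 0.15, adjusted p = 9.37e-12), and in dK9.2 from 293, 329 and 308 to 45.6, 56.6 and 57.5 (log2 change -2.52, SE 0.15, adjusted p = 1.72e-12). Foxm1, which acts with it in G2, changed by -0.36, -0.47 and -0.37 on day 4 in E14Tg2a, dK9.1 and dK9.2, which did not pass but passed as lower with the assay number as a block (adjusted p = 0.0366, 0.00811 and 0.0277). It measured 27.4, 36.6 and 32.7 TPM on day 0 and 34.2, 37.0 and 30.6 on day 8 in E14Tg2a (log2 change 0.08, SE 0.18, adjusted p = 0.743), with overlap, and was higher in dK9.1 on day 8 (log2 change 0.43, SE 0.18, adjusted p = 0.0489). In dK9.2 its change was 0.39 (adjusted p = 0.0747, and 0.0157 with the assay number as a block).

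The 3 activating E2F factors split. E2f2 had low levels, 10.5, 8.50 and 6.92 TPM on day 0 and 2.601, 3.33 and 1.09 on day 8 in E14Tg2a (log2 change -1.58, SE 0.26, adjusted p = 9.89e-06), and had fallen by day 4 in every line. E2f1 measured 27.0, 28.4 and 24.7 TPM and then 19.6, 14.6 and 13.9 (log2 change -0.71, SE 0.12, adjusted p = 2.15e-05). E2f3 went up, from 14.1, 12.7 and 10.96 TPM to 21.5, 20.2 and 17.4 (log2 change 0.61, SE 0.19, adjusted p = 0.00763), and the clones changed by 0.70 and 0.70, both passing. For each of the 3 the day 0 and day 8 libraries of E14Tg2a did not overlap.

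Of the pocket proteins, which hold E2F factors inactive, Rbl2 (p130) fell from 5.39, 8.73 and 4.64 TPM to 1.23, 4.09 and 1.97 in E14Tg2a (log2 change -1.13, SE 0.30, adjusted p = 0.00219) and passed on day 8 in both clones, with -0.91 and -1.10. These are values near the low end of the table, where the pseudocount of 1 TPM makes a change look smaller than it is. Rbl1 (p107), whose promoter is among those shown, changed by -0.32 in E14Tg2a (14.1, 17.6 and 15.6 TPM, then 11.4, 14.3 and 11.8, adjusted p = 0.0231). Rbl1 was lower on days 4 and 6 in every line, while its day 8 changes of -0.26 and -0.22 in the clones did not pass. Its day 4 call in dK9.2 ended after rescaling (adjusted p = 0.0785). Rb1 passed on no day in E14Tg2a, with 8.86, 8.93 and 7.66 TPM on day 0 and 5.19, 10.4 and 7.81 on day 8 (log2 change -0.15, SE 0.28, adjusted p = 0.669).

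In the S to M group, Ccnb1 and Fbxo5 fell while Cdk1 and Cdc25c rose, and 5 of the 9 did not pass on day 8 in E14Tg2a. Ccnb1, the cyclin that activates Cdk1 at the entry to mitosis, measured 271, 282 and 266 TPM on day 0, 232, 231 and 222 on day 4, 187 and 190.4 on day 6 and 173, 179 and 169.6 by day 8 (log2 change -0.65, SE 0.08, adjusted p = 6.67e-08), and every day 8 library lay below every day 0 library. Ccnb2, the other B cyclin, measured 154, 169 and 170.4 TPM and then 125, 149.6 and 173 (log2 change -0.15, SE 0.10, adjusted p = 0.187), with overlap. On day 6 Ccnb2 was lower in all 3 lines, with changes of -0.36, -0.46 and -0.60, though the dK9.1 call ended after rescaling (adjusted p = 0.0556). Fbxo5 (Emi1), which inhibits the APC/C during S and G2 phases, went from 94.0, 103 and 95.4 TPM to 68.1, 60.1 and 58.4 (log2 change -0.64, SE 0.09, adjusted p = 9.1e-07), with no overlap. Cdk1 itself measured 400.3, 426 and 455 TPM on day 0 and 459.6, 529 and 514 on day 8 (log2 change 0.23, SE 0.09, adjusted p = 0.0249), with no overlap, and rose in dK9.1 (0.50) and dK9.2 (0.33) as well. After rescaling the E14Tg2a change was 0.15 (adjusted p = 0.154).

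The Cdc25 phosphatases, which activate the CDKs, did not move as a family. Cdc25c was lower on day 4 in E14Tg2a, at 14.5, 14.5 and 15.8 TPM against 21.8, 19.98 and 19.7 on day 0 (log2 change -0.43, SE 0.13, adjusted p = 0.0142), and higher on day 8, at 22.7, 27.5 and 30.4 (log2 change 0.37, SE 0.13, adjusted p = 0.0168). The day 8 call ended without day 0 replicate 3 (adjusted p = 0.0518) or day 8 replicate 3 (adjusted p = 0.1), and in a fit of only the 2 groups compared (adjusted p = 0.0681). Cdc25b fell on day 8 in dK9.1, from 23.0, 23.9 and 24.2 to 6.86, 15.0 and 14.03 TPM (log2 change -1.0, SE 0.22, adjusted p = 0.00055), and in dK9.2, from 22.3, 20.8 and 18.2 to 7.09, 7.56 and 13.3 (log2 change -1.10, SE 0.22, adjusted p = 0.000176). In E14Tg2a its change was -0.95 on day 6 (adjusted p = 0.0035) and -0.33 on day 8 (adjusted p = 0.208). Cdc25a and Wee1, the kinase that opposes these phosphatases, passed on no day in any line, and neither did Ccna2 (cyclin A2), whose changes lay between -0.22 and 0.10. With the assay number as a block, Cdc25a passed in dK9.1 on day 4 and dK9.2 on day 6 (adjusted p = 0.0444 and 0.0499), and Ccna2 in E14Tg2a on day 4 (adjusted p = 0.0274). After rescaling, Wee1 passed as lower in E14Tg2a on day 8 (-0.29, adjusted p = 0.0241). On day 4 Wee1 then passed as higher in dK9.1 (0.325, adjusted p = 0.0353) and dK9.2 (0.40, adjusted p = 0.00684). Rescaling also made Cdc25a pass as higher in dK9.2 on day 6 (adjusted p = 0.0297) and Ccna2 as higher in dK9.1 on day 4 (adjusted p = 0.0454).

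Of the 9 mitotic genes 3 passed on day 8 in E14Tg2a, 6 in dK9.1 and 5 in dK9.2, beside 58.3%, 49.9% and 51.3% of all genes. In E14Tg2a, 2 of 9 were lower, 1 was higher and 6 did not pass, with a median of -0.07. Bub1b (BubR1), a spindle checkpoint protein, fell from 153, 165 and 156 TPM to 95.1, 114 and 104 (log2 change -0.60, SE 0.10, adjusted p = 9.21e-06), with no overlap, and fell in both clones, with changes of -0.48 and -0.65. Aurkb, the kinase of the chromosomal passenger complex, rose from 76.2, 71.8 and 62.6 TPM to 99.9, 92.9 and 114 (log2 change 0.54, SE 0.10, adjusted p = 4.45e-05), with no overlap. Birc5 (survivin), which belongs to that complex, fell by day 4. It measured 257, 230.1 and 239 TPM on day 0, 154, 149 and 161 on day 4 (log2 change -0.64, SE 0.08, adjusted p = 4.84e-06), 193 and 208 on day 6 and 246, 201 and 184 by day 8 (log2 change -0.21, SE 0.08, adjusted p = 0.0362). Its day 8 call ended without day 0 replicate 1 or 3 (adjusted p = 0.141 and 0.0585), without day 8 replicate 2 or 3 (adjusted p = 0.112 and 0.257), and with only the 2 groups compared (adjusted p = 0.204).

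Bub1, the checkpoint kinase, was the only member of its group higher on day 4 in E14Tg2a. It measured 77.6, 76.8 and 74.4 TPM on day 0, 128, 102 and 101 on day 4 (log2 change 0.52, SE 0.11, adjusted p = 0.00132) and 78.2, 72.5 and 68.3 on day 8. In dK9.1 its day 4 change was 0.10 and did not pass, from a day 0 level of 103, 119 and 109 TPM. After rescaling that change was 0.37 and passed (adjusted p = 0.011). On day 8 Bub1 was lower in dK9.1 (log2 change -0.44, SE 0.11, adjusted p = 0.00213), at 92.2, 79.4 and 71.5 TPM. Mki67, the standard marker of proliferating cells, was lower on day 4, at 25.5, 36.6 and 30.5 TPM against 40.5, 43.7 and 40.4 on day 0 (log2 change -0.43, SE 0.15, adjusted p = 0.0338), and measured 45.6, 55.4 and 38.8 on day 8 (log2 change 0.15, SE 0.15, adjusted p = 0.414). It passed on day 8 in neither clone, with 0.15 and 0.05. Top2a, the topoisomerase that untangles sister chromosomes, fell on day 6 in E14Tg2a (log2 change -0.47, SE 0.15, adjusted p = 0.0164) and changed by -0.22 on day 8 (adjusted p = 0.181, and 0.0416 with the assay number as a block). On day 8 Top2a changed by -0.29 in dK9.1 and -0.30 in dK9.2. These did not pass, but passed with the block (adjusted p = 0.00907 and 0.00675) and after rescaling (adjusted p = 0.0205 and 0.0276). Aurka was lower in E14Tg2a on day 6 only, with a change of -0.26. In dK9.1 on day 8 Aurka changed by -0.17, which passed with the block (adjusted p = 0.0481). Plk1 and Cdc20 passed on no day in E14Tg2a, and on day 8 their adjusted p was 0.462 and 0.985. In both clones Plk1 and Cdc20 were higher on day 8, Plk1 by 0.33 and 0.26, and Cdc20 by 0.34 and 0.21.

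Mitotic promoters are known for the cell cycle genes homology region (CHR), bound by complexes that hold Mybl2 or pocket proteins. The 3 promoters here are shown for it, in the same format, and capitals mark TTTGAA or TTCGAA on either strand.
Cdk1, chr10:69352913-69353072, minus strand: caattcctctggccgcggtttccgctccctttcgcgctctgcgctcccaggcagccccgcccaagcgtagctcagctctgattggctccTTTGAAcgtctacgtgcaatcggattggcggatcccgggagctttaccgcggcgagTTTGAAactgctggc
Cdc20, chr4:118437344-118437503, minus strand: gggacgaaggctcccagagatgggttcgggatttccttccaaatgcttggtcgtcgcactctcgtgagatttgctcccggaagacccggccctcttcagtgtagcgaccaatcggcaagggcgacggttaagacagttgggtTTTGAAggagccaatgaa
Mki67, chr7:135716380-135716539, minus strand: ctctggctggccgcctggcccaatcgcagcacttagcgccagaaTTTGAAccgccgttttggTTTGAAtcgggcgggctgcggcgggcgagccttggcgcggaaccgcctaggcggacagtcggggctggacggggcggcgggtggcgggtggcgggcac

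These letters occurred in the 300-base window of 7 of 8 mitotic members, or 87.5%, in 4 of 6 of the S to M group, in 3 of 10 replication genes and in 21.7% of all promoters. The CCAAT box was found in 28 of the 40 members with a window, or 70.0%, and in 41.1% of all promoters. Of the other genes of mitosis, 33 of 45 windows held the CHR letters.

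Both CDK inhibitors were higher in E14Tg2a on day 8. Cdkn1b (p27), which restrains Cdk2, measured 32.9, 35.4 and 34.7 TPM on day 0, 53.9, 74.4 and 64.9 on day 4 (log2 change 0.88, SE 0.13, adjusted p = 1.64e-05), 37.2 and 39.4 on day 6 (log2 change 0.15, SE 0.14, adjusted p = 0.426) and 47.5, 71.5 and 56.3 by day 8 (log2 change 0.73, SE 0.13, adjusted p = 2.46e-05). All libraries of days 4, 6 and 8 were above every day 0 library, and a fall between days 4 and 6 passed (-0.72, adjusted p = 0.000712). The clones followed on both days, with 0.68 and 0.47 in dK9.1 and 0.83 and 0.54 in dK9.2, all passing. Cdkn1a (p21), a target of p53, measured 54.4, 83.8 and 65.5 TPM on day 0 and 77.4, 108 and 132 on day 8 (log2 change 0.62, SE 0.26, adjusted p = 0.0446), and the groups overlapped. That call ended after rescaling (adjusted p = 0.09) and without day 0 replicate 1 or 3 or day 8 replicate 2 or 3 (adjusted p = 0.172, 0.0909, 0.1 and 0.198). In the clones its day 8 changes of -0.32 and 0.38 did not pass.

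**Figure D4:**
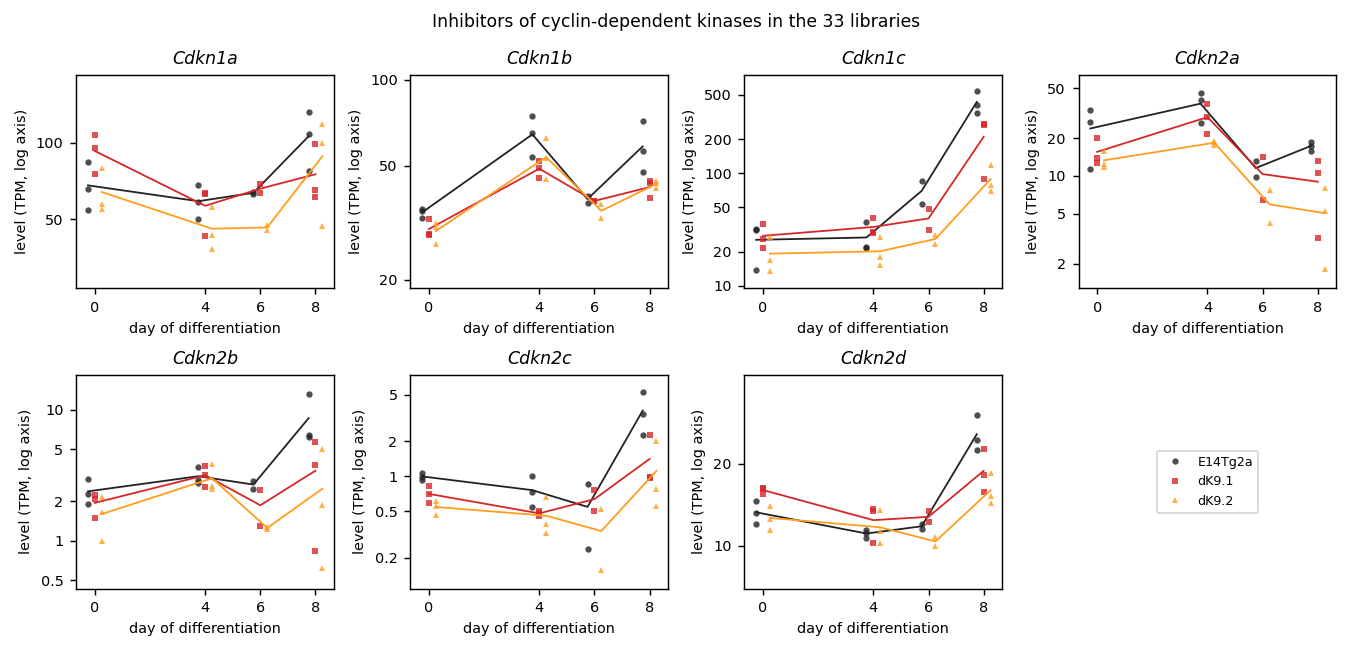
TPM on a log scale by day for Cdkn1a, Cdkn1b and the other CDK inhibitors, with a point for each library and a line through the group means of E14Tg2a, dK9.1 and dK9.2. Cdkn1b is highest on days 4 and 8, where E14Tg2a reaches 74.4 and 71.5 TPM, and Cdkn1c climbs to 541 TPM in E14Tg2a.

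The rest of the pathway was read from lists that also came from general knowledge. Their counts stand beside 32.1% of all genes higher and 26.2% lower on day 8 in E14Tg2a. Of 38 other replication genes 26 were lower and 2 higher on day 8 in E14Tg2a, with a median change of -0.47 beside 0.05 for all genes. The most changed were Pola1, the catalytic subunit of DNA polymerase alpha (log2 change -1.36, SE 0.17, adjusted p = 2.5e-07), and Rfc5 of the clamp loader (log2 change -1.27, SE 0.19, adjusted p = 4.26e-06), while Rfc3 of that loader (log2 change 0.55, SE 0.13, adjusted p = 0.000564) and Orc4 (log2 change 0.43, SE 0.16, adjusted p = 0.0257) were higher. Of 52 other mitosis genes 24 were lower and 5 higher, with a median of -0.26: the kinetochore scaffold Knl1 changed by -1.09 and Ect2, which starts cytokinesis, by -1.05, and Tacc3 and Cenpa by 0.37 and 0.35. Of 18 other E2F, MuvB and G1 regulators 6 were higher, led by E2f5 (1.18) and the repressor E2f6 (0.99), and 5 lower, led by Mycn (-0.95) and Lin52 (-0.75), which is 33.3% and 27.8% of them and near the shares of all genes. Of 15 APC/C subunits and activators 8 were higher and 1 lower, with Anapc2 at 0.96, Cdc16 at 0.60 and Anapc15 at -0.81.

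Of the 5 other CDK inhibitors 4 were higher on day 8 in E14Tg2a. Cdkn1c (p57), an imprinted gene, measured 31.0, 13.7 and 32.0 TPM on day 0 and 344, 541 and 409.8 on day 8 (log2 change 4.09, SE 0.37, adjusted p = 1.15e-09). Cdkn2b (p15), an inhibitor of Cdk4 and Cdk6, measured 1.93, 2.29 and 2.94 and then 6.47, 6.23 and 13.2 (log2 change 1.45, SE 0.38, adjusted p = 0.00205). Of 20 p53 target genes, beside those same shares of all genes, 4 were higher, among them Fas (1.84) and Tnfrsf10b (1.03), and 8 lower, among them Gadd45a (-1.22) and Sesn2 (-0.99), so the list of the targets that Cdkn1a belongs to did not share 1 direction.

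The clones were compared with E14Tg2a on each day, the contrast for which the deletion was made. On day 0 only 1 of the 53 members passed for both clones together, Cdc20, which was lower (log2 difference -0.32, SE 0.07, adjusted p = 0.0106), while 3.99% of all genes passed. Cdc20, the activator that directs the APC/C to its targets in mitosis, measured 229, 202 and 218 TPM in E14Tg2a, 144, 151 and 152 in dK9.1 and 207, 192 and 203 in dK9.2. The dK9.1 libraries lay below all others, while those of dK9.2 overlapped with E14Tg2a, and the clones differed from each other (log2 difference -0.43, SE 0.08, adjusted p = 0.0064). The call ended without E14Tg2a day 0 replicate 3 (adjusted p = 0.0691). With the assay number as a block 4 members passed on day 0, the added ones being Rb1 (adjusted p = 0.0371 in place of 0.0536) and Ccna2 (0.0214 in place of 0.0652), both lower, and Bub1 (0.0201 in place of 0.0571), which was higher.

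Separately, in a fit of the 9 day 0 libraries, the clones gave unlike counts. In dK9.1, 5 members were higher and 8 lower than in E14Tg2a (15.5% of the 14504 genes tested passed, 10.1% higher and 5.36% lower), and in dK9.2 none passed, where 0.0827% of all genes did and 3 members had an unadjusted p under 0.05. The dK9.1 genes were Ccnd2 (1.02), Bub1 (0.52), E2f1 (0.39), Fbxo5 (0.33) and Mybl2 (0.30) upwards, and Rb1 (-0.94), Cdc20 (-0.53), Ccnd3 (-0.50), Cdc25c (-0.45), Ccna2 (-0.39), Mcm5 (-0.38), Plk1 (-0.32) and Ccnb1 (-0.24) downwards. Ccnd3 measured 133, 137 and 119 TPM in dK9.1 against 193, 188 and 172 in E14Tg2a and 199, 188 and 170.2 in dK9.2. Bub1 measured 103, 119 and 109 TPM in dK9.1 and 77.6, 76.8 and 74.4 in E14Tg2a. In both, the dK9.1 libraries stood clear of the other 6. The 13 calls of dK9.1 were 3 higher and 11 lower after rescaling, which ended those of Ccnd2, Fbxo5 and Mybl2 (adjusted p = 0.075, 0.157 and 0.0857), and 23 with the assay number as a block. Without E14Tg2a replicate 2 or 3 they were 5 or 6, and without dK9.1 replicate 1, 2 or 3 they were 6, 6 or 7. Under a rule that asked for a pass and a change above 0.3 the same way in both clones, no member was called, and 0.0758% of all genes were. A direct comparison of the clones gave Cdc20 on day 0 and no member later, where 4, 2 and 2 members had an unadjusted p under 0.05 on days 4, 6 and 8 in limma. Of all genes, 1.81% passed between the clones on day 0, and 0%, 0.00612% and 0% later.

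Libraries that do not overlap were counted as well. On day 0, 1 member had all 6 clone libraries above all 3 of E14Tg2a and 2 had them below, against 5.17% and 2.75% of all genes. Mybl2 was above, with 345, 343 and 311 TPM in dK9.1 and 293, 329 and 308 in dK9.2 against 277, 262 and 269 (exact permutation test, 2-sided, p = 0.0238, the smallest that 3 against 6 libraries allow). That p only restates the lack of overlap. Rb1 and Cdkn1b were below, at that same exact p. On day 4 no member passed, while 2.85% of all genes did, and 5 members had an unadjusted p under 0.05. There 0 members had all clone libraries above those of E14Tg2a and 2 had them below, Rb1 and Ccnb2, against 1.63% and 5.95% of all genes. On day 6, 1 member passed, Mybl2, while 3.83% of all genes did. It measured 56.0 and 55.8 TPM in E14Tg2a, 84.0 and 117 in dK9.1 and 74.3 and 64.4 in dK9.2 (log2 difference 0.56, SE 0.16, adjusted p = 0.0423), and every clone library was above. By non-overlap, 8 members were above on day 6 and 8 below, against 12.8% and 19.6% of all genes, in a design of 2 against 4 libraries. The limma count was 0 without either E14Tg2a library, dK9.1 replicate 3 or either dK9.2 library of day 6, and 2 without dK9.1 replicate 2. With the assay number as a block Ccnb2 also passed on day 6, as lower (adjusted p = 0.0322 in place of 0.0735).

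By day 8 the clones differed from E14Tg2a in 12 members, 9 higher and 3 lower, where 19.7% of all genes passed, 7.52% as higher and 12.2% as lower. Replication genes held 6 of the 9 higher calls, out of 14 in their group: Mcm7, Orc1, Pcna, Mcm2, Mcm3 and Gins1. The others were Ccne1, Mybl2 and Fbxo5, which are genes that fell in E14Tg2a, and the lower ones were Ccnd3, Cdkn1b and Cdc25c. No mitotic gene passed, and by limma none of the 9 had an unadjusted p under 0.05. The median difference of the members was 0.09 beside 0.00 for all genes. The total rested on the E14Tg2a libraries of day 8, since it was 4 without replicate 2 and 6 without replicate 3.

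Among the replication genes, Mcm7 measured 212, 149 and 152 TPM in E14Tg2a on day 8, 292, 249 and 215 in dK9.1 and 292, 245 and 243 in dK9.2 (log2 difference 0.59, SE 0.11, adjusted p = 0.00036). All 6 clone libraries were above the 3 of E14Tg2a, which by itself sets the exact permutation test at its smallest p, 0.0238. Orc1 measured 30.1, 21.3 and 21.6 TPM in E14Tg2a, 38.8, 29.2 and 29.5 in dK9.1 and 43.0, 34.1 and 26.9 in dK9.2 (log2 difference 0.45, SE 0.13, adjusted p = 0.0157), with overlap through E14Tg2a replicate 1. Its call ended without E14Tg2a replicate 2 or 3 of day 8 (adjusted p = 0.141 and 0.0957). Pcna measured 312, 232 and 255 TPM in E14Tg2a, 383, 370.0 and 315 in dK9.1 and 423, 349 and 313 in dK9.2 (log2 difference 0.43, SE 0.14, adjusted p = 0.0262), with the clones above but by less than 1 TPM at the nearest. Mcm2, Mcm3 and Gins1 differed by 0.40, 0.35 and 0.30 (adjusted p = 0.0176, 0.0443 and 0.0189). Gins2, which rose with time in E14Tg2a, was below in all 6 clone libraries with a difference of -0.17, and did not pass (adjusted p = 0.328).

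Of the regulators, Ccne1 measured 47.2, 32.6 and 35.0 TPM in E14Tg2a, 57.7, 50.5 and 67.9 in dK9.1 and 79.9, 55.0 and 58.7 in dK9.2 on day 8 (log2 difference 0.68, SE 0.12, adjusted p = 0.000387). Mybl2 measured 39.6, 36.6 and 33.8 TPM in E14Tg2a, 51.0, 62.6 and 72.7 in dK9.1 and 45.6, 56.6 and 57.5 in dK9.2 (log2 difference 0.63, SE 0.13, adjusted p = 0.00117). Fbxo5 measured 68.1, 60.1 and 58.4 TPM in E14Tg2a, 86.4, 89.5 and 85.9 in dK9.1 and 92.5, 80.4 and 71.4 in dK9.2 (log2 difference 0.43, SE 0.08, adjusted p = 0.000341). In all 3 genes every clone library was above every E14Tg2a library. Cdkn1b measured 47.5, 71.5 and 56.3 TPM in E14Tg2a, 43.5, 44.3 and 38.6 in dK9.1 and 41.8, 43.5 and 44.4 in dK9.2 (log2 difference -0.43, SE 0.11, adjusted p = 0.00765), with every clone library below. Ccnd3 measured 172, 263 and 214 TPM in E14Tg2a, 150.3, 155 and 108 in dK9.1 and 127, 166 and 181 in dK9.2 (log2 difference -0.55, SE 0.14, adjusted p = 0.00567), with overlap in dK9.2 alone. Ccnd2 had a larger difference, -0.63, that did not pass (adjusted p = 0.183). The calls of Cdkn1b and Ccnd3 ended without E14Tg2a replicate 2 of day 8 (adjusted p = 0.153 and 0.105). Cdc25c differed by -0.33 (adjusted p = 0.0396). In all, 6 members had the clones above without overlap and 2 below, against 5.44% and 7.99% of all genes.

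Compared 1 clone at a time, dK9.1 had 5 members higher and 3 lower on day 8 (11.3% of all genes passed), and dK9.2 had 7 higher and 1 lower (16.6%). In a fit of only the day 8 libraries, 1 member passed, Mybl2 (adjusted p = 0.0371), and Fbxo5, Mcm7 and Ccne1 had adjusted p of 0.053, 0.0523 and 0.0522, Cdkn1b 0.0909, Ccnd3 0.101 and Orc1 0.165.

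Cell type markers moved with these differences. On day 8 the endoderm markers summed to 365 to 510 TPM in E14Tg2a, 34.5 to 141 in dK9.1 and 55.4 to 72.4 in dK9.2, and all 10 of their means were lower in the clones. Matrix-forming and fibroblast markers summed to 521 to 2309 TPM in E14Tg2a and 47.1 to 281 in the clones, with 7 of 8 lower. Blood markers summed to 1021 to 4700 in E14Tg2a and 13.7 to 1845 in the clones, with 7 of 7 lower. Mesoderm and cardiac markers summed to 651 to 779 in E14Tg2a and 150 to 591 in the clones, with 8 of 10 lower. Neuron markers summed to 50.3 to 70.0 and 39.3 to 117, with 6 of 7 higher in the clones, and 7 of the 10 pluripotency markers were higher in them. E14Tg2a replicate 2, without which calls ended, was the library with the highest blood and matrix sums of day 8. No listed marker had a mean of 0 in any line on day 8, Neurod1 and Elavl3 were under 1 TPM in every line, and Dcx and Ptprc are not in the table. The part of these markers in the differences between lines was not tested.

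**Figure D5:**
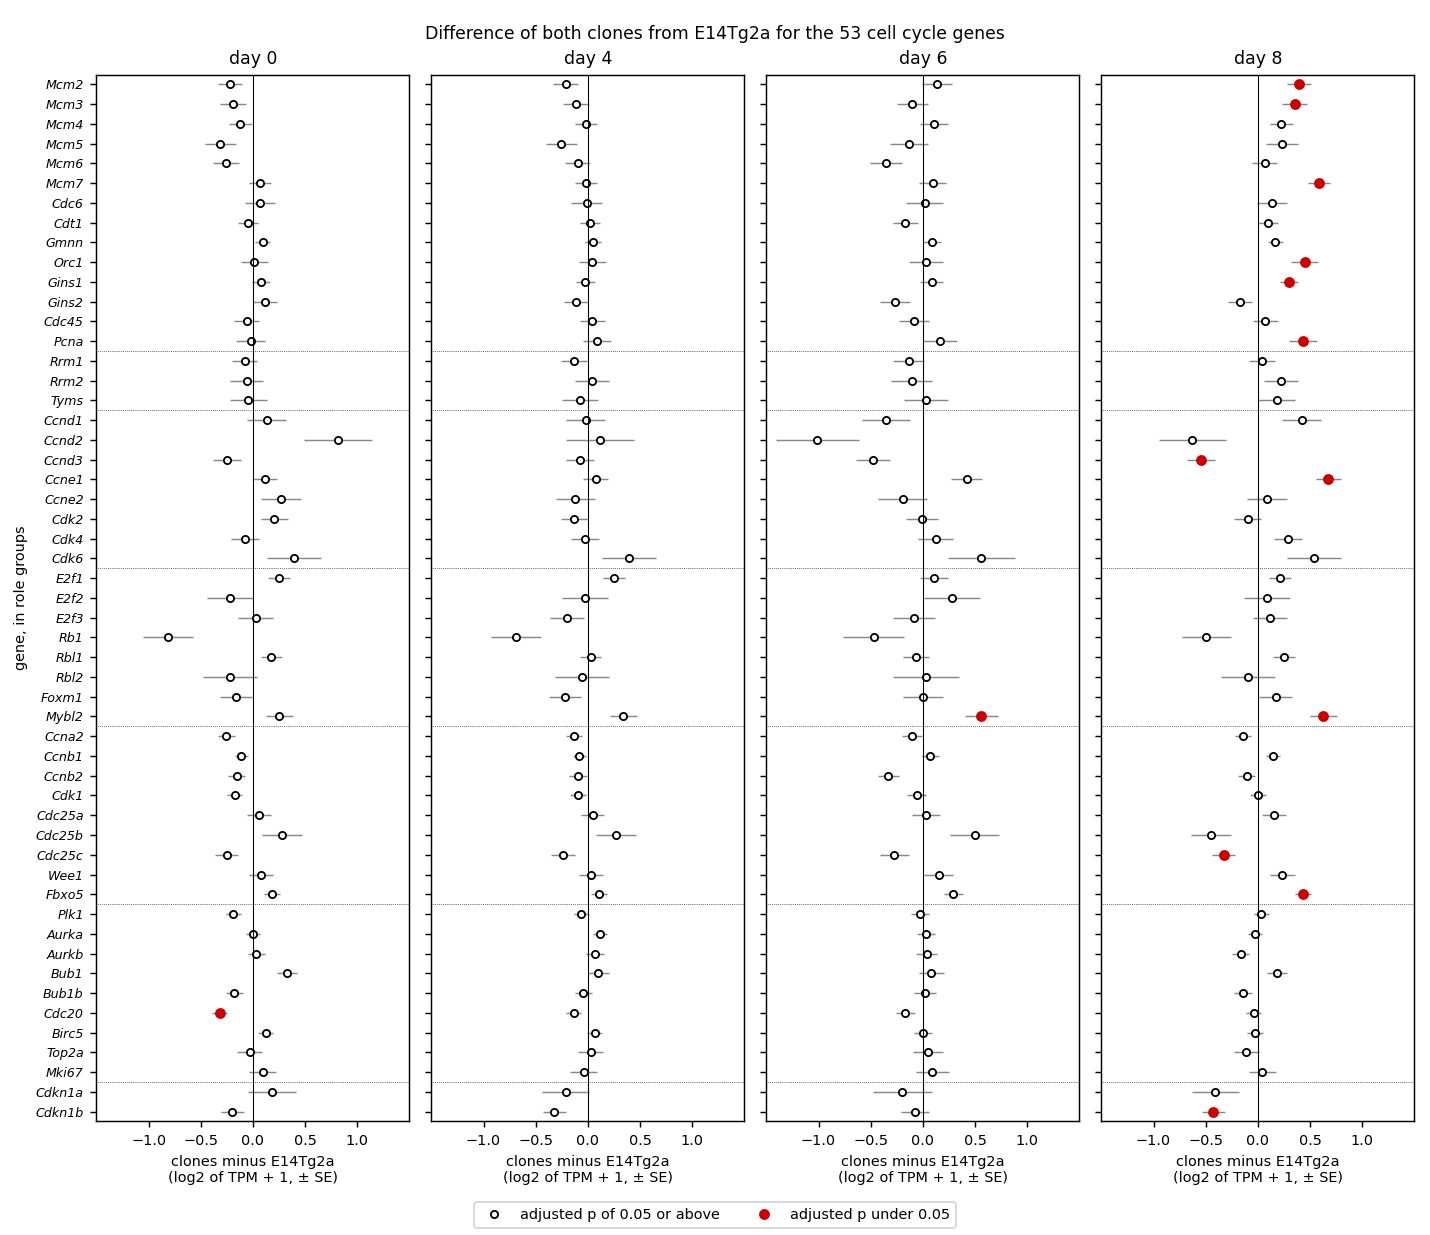
Difference of both clones from E14Tg2a in log2(TPM + 1), with its standard error, for each of the 53 genes on days 0, 4, 6 and 8, filled where adjusted p was under 0.05. The filled points are Cdc20 on day 0, Mybl2 on day 6 and 12 genes on day 8, of which Ccne1 lies furthest to the right at 0.68 and Ccnd3 furthest to the left at -0.55.

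Whether the course itself differed was tested as the change from day 0 in both clones minus that in E14Tg2a. On days 4 and 6 no member passed, where 0.0184% and 0.306% of all genes did, and 0 and 2 members had an unadjusted p under 0.05. On day 8, 3 members passed, all with a less negative change in the clones, while 6.3% of all genes passed, 1.35% in that direction. Mcm2 changed by -1.03 in E14Tg2a, -0.40 in dK9.1 and -0.44 in dK9.2 (log2 difference 0.61, SE 0.16, adjusted p = 0.0261). Mcm7 changed by -0.71, -0.20 and -0.18 (log2 difference 0.52, SE 0.15, adjusted p = 0.0371), and Ccne1 by -1.89, -1.42 and -1.23 (log2 difference 0.56, SE 0.17, adjusted p = 0.0488). On day 0 Mcm7 and Ccne1 overlapped between each clone and E14Tg2a, while Mcm2 measured 184, 173 and 176 TPM in dK9.1, below the 189, 239 and 232 of E14Tg2a. The median of all genes in this contrast was -0.13 on day 4 and 0.00 after rescaling, with no member passing there either way.

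The count of 3 rested on single libraries. It was 0 without replicate 2 or 3 of E14Tg2a on either day 0 or day 8, and 1 without dK9.1 day 0 replicate 1 or 3, dK9.1 day 8 replicate 1, dK9.2 day 0 replicate 2 or 3 or dK9.2 day 8 replicate 1. The count was 5 without E14Tg2a day 8 replicate 1 or dK9.2 day 8 replicate 3. With the assay number as a block 6 members passed, the added ones being Mcm3 (log2 difference 0.54, adjusted p = 0.0224 in place of 0.061), Orc1 (0.44, 0.0283 in place of 0.151) and Ccnb1 (0.25, 0.0382 in place of 0.0992). After rescaling 9 passed, and in a fit of only the groups compared 1 passed. Cdc20 and Cdc25b followed at 0.28 and -0.72 (adjusted p = 0.094 and 0.109). Ccnd2 had the largest difference in size on day 6, -1.83 with adjusted p = 0.152, where E14Tg2a had 38.3 and 25.5 TPM, dK9.1 31.3 and 8.69 and dK9.2 12.5 and 14.6. Without dK9.1 day 6 replicate 2, the library of 31.3 TPM, it was -2.26 with adjusted p = 0.0128.

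Rb1 stands apart among the members for its place in the genome. It lies on the minus strand at chr14:73183673-73325822 (mm10), inside the segment from 50 to 80 Mb of chromosome 14 where 153 genes had a mean of at least 5 TPM. Of those, 146 were lower in the clones on day 0 and 149 on each later day, with median differences of -0.60, -0.63, -0.89 and -0.75 on days 0, 4, 6 and 8. The medians of all genes were 0.05, -0.06, -0.03 and -0.004. The segment was chosen because an earlier report found most of its genes lower in both clones, so these counts are no independent test. No other member lies in the segment. Rb1 measured 8.86, 8.93 and 7.66 TPM in E14Tg2a, 4.63, 4.79 and 2.69 in dK9.1 and 5.41, 5.87 and 3.65 in dK9.2 on day 0 (log2 difference -0.81, SE 0.24, adjusted p = 0.0536). All 6 clone libraries were below on day 0 and on day 4 (exact permutation test, p = 0.0238 on both days), and the 4 of day 6 were below as well (exact p = 0.133, the smallest that 2 against 4 libraries allow). On day 8 they overlapped, with 5.19, 10.4 and 7.81 TPM in E14Tg2a, 5.43, 7.32 and 3.99 in dK9.1 and 2.63, 4.54 and 8.28 in dK9.2 (log2 difference -0.49, SE 0.24, adjusted p = 0.155). The differences on days 4 and 6 were -0.69 and -0.47 (adjusted p = 0.13 and 0.442). In the fit of day 0 alone dK9.1 passed (log2 difference -0.94, SE 0.21, adjusted p = 0.0188) and dK9.2 did not (log2 difference -0.68, SE 0.21, adjusted p = 0.331), and the dK9.1 call ended without E14Tg2a replicate 2 (adjusted p = 0.063). Among the 153 genes of the segment Rb1 was number 28 from the lowest on day 0 and number 57, 122 and 115 on days 4, 6 and 8.

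The other lists of the pathway were compared on day 8 as well, where 7.52% of all genes were higher in the clones and 12.2% lower. Of 38 other replication genes 13 were higher in the clones than in E14Tg2a and 0 lower, with a median of 0.17 beside 0.00 for all genes. Of 52 other mitosis genes 3 were lower, or 5.77%, and none higher, and of 18 other E2F, MuvB and G1 regulators 1 was lower, E2f8 (-0.61). Of 15 APC/C genes 2 were higher and 2 lower. All 5 of the other CDK inhibitors were lower in the clones, with differences of -1.73 for Cdkn1c, -1.41 for Cdkn2b, -1.40 for Cdkn2a, -1.04 for Cdkn2c and -0.54 for Cdkn2d. Cdkn1c measured 344, 541 and 409.8 TPM in E14Tg2a, 275, 271 and 89.1 in dK9.1 and 69.1, 119 and 78.4 in dK9.2 on day 8. Of the 20 p53 targets 1 was higher and 5 lower, or 5.0% and 25.0%. These lists were measured in the same libraries as the members.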

How the data were processed

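Poly-A RNA of the 33 libraries was sequenced as stranded paired-end reads. The authors aligned the reads with STAR to mm10 and deposited TPM values computed with RSEM, after leaving out what a principal component analysis marked as outliers. Versions and the annotation used are not given in the sources used here. The deposited table also holds log2 fold changes and adjusted p-values from the authors' own comparisons with DESeq2, which were not used.

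From the TPM values, groups were compared with limma 3.58.1 (R 4.3.3) with an intensity trend on log2(TPM + 1), and p-values were adjusted by Benjamini-Hochberg over all 16336 genes, or, for the fit of day 0, over the 14504 whose mean reached 1 TPM in a group. A pseudocount of 1 makes the fold changes of low genes smaller. Exact permutation tests (scipy 1.17.1) were 2-sided, were not adjusted for the number of genes or days, and took the libraries of both clones as exchangeable. Where libraries do not overlap, the exact p is the smallest possible and only restates that. The scripts were tested on simulated data in which 200 of 16336 genes changed by 0.5 or by 1 on the log2 scale. Of changes of 0.5, 44 were called for day 8 against day 0 in E14Tg2a. For both clones on day 8 this was 74, and for the difference of courses 10. Of changes of 1, 148, 172 and 138 were called. A member that did not pass may therefore have changed. The deposited table holds no read counts, so no counting error is given, and p-values measure the spread between independent differentiation assays of the same lines.

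The 53 members and all gene lists were chosen with earlier results of these data known. Genes were named with values as the 3 most changed of each role group among those that passed between day 0 and day 8 in E14Tg2a, the CDK inhibitors, up to 8 members with the smallest p for the clones and for the difference of courses, and the members between 50 and 80 Mb of chromosome 14. Of the other lists the 2 most changed genes in each direction were named. The remaining members were named to account for all, and the other CDK inhibitors and E2f8 in the clones, and the promoters shown, were chosen after their values were seen. Positions came from GENCODE M21 and promoters from RefSeq.

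The lines were differentiated in parallel, so the library number was taken as the number of the assay. Deviations of libraries with the same number and day in different lines correlated above 0.1 in 31 of 33 pairs, with a median of 0.222 and a lowest value of -0.0129, against a median of -0.127 over 60 pairs with different numbers. Deviations were taken from group means and cancel within a group. The pairs with different numbers are therefore not an independent comparison. Alternatives were rescaling by median ratios, the number as a replicate block, a fit of only the groups compared, each library left out, another pseudocount (0.1), and another minimum level (5 TPM) or none.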

Additional observations from a re-analysis of the deposited data

Results flagged for a closer look

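By limma's test of the difference itself, 3 of the 53 members changed unlike E14Tg2a in the clones over the 8 days, or 5.66%, beside 6.3% of all genes. The log2 differences, both clones minus E14Tg2a, were 0.61 for Mcm2 (adjusted p = 0.0261), 0.52 for Mcm7 (adjusted p = 0.0371) and 0.56 for Ccne1 (adjusted p = 0.0488). In each the clones kept more of the day 0 level than E14Tg2a. The adjusted p of Mcm2 was 0.0868 without E14Tg2a day 0 replicate 2 or 3, 0.0986 without its day 8 replicate 2 and 0.0723 without its day 8 replicate 3. The call of Mcm7 ended without any 1 of 10 libraries and that of Ccne1 without any 1 of 14. In a fit of only the groups compared, 1 member passed in place of 3.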

How the results depend on the processing

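Without 1 library of the groups compared, the number of members that passed against day 0 was 13 to 23 (day 4), 15 to 23 (day 6) and 26 to 30 (day 8) in E14Tg2a, 13 to 20, 13 to 19 and 23 to 28 in dK9.1, and 15 to 23, 14 to 19 and 24 to 29 in dK9.2. It lay between 6 and 12 for day 6 against day 4 and between 7 and 20 for day 8 against day 6. For both clones against E14Tg2a it was 0 to 2 (day 0), 0 to 1 (day 4), 0 to 2 (day 6) and 4 to 15 (day 8), and in the fit of day 0 between 5 and 17 for dK9.1 and at 0 for dK9.2. For the difference of courses it was 0 on day 4, 0 to 1 on day 6 and 0 to 5 on day 8.

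With the replicate block 31 members passed in dK9.1 on day 4 in place of 20, 4 in the clones on day 0 in place of 1, 2 in the clones on day 6 in place of 1, 23 in dK9.1 in the fit of day 0 in place of 13 and 6 for the difference of courses on day 8 in place of 3. The block moved no other count by more than 1.5 times and ended no call of a member. After rescaling, 4 members passed in the clones on day 0, 1 on day 4 in place of 0, and 9 for the difference of courses on day 8. With a minimum of 5 TPM, 2 passed in the clones on day 0. With only the groups compared, 4 passed in the clones on day 0, 0 on day 6, 1 on day 8 in place of 12, and 1 for the difference of courses on day 8. No gene changed sign in these alternatives in the comparison it was named for by rule. Other comparisons held such changes. In dK9.1 on day 4, rescaling turned the changes of Ccna2 from -0.04 to 0.23, of Aurka from -0.03 to 0.24 and of Bub1b from -0.27 to 0.003. After rescaling, the balance of members higher and lower turned from 3 and 17 to 10 and 8 in dK9.1 on day 4, and from 7 and 6 to 6 and 8 for day 6 against day 4 in E14Tg2a. The next counts cover genes only in the comparisons they were named for by rule. Apart from single libraries left out, 181 values kept their side of the threshold, 9 came to pass and 12 no longer passed. Where a library was left out these were 313, 7 and 46. Leaving out the minimum on TPM changed the genes tested only in the fit of day 0. Causes of these shifts were not tested. The paper gives an approximate number of reads for each library, but the values used here hold no counts by gene. The counting error of low genes such as Rbl2, E2f2 and Rb1 is therefore not given.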
